A study of Mus musculus with 8 samples.

Results

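The 10 genes described here are the transcription factor gene Nfe2l2 (NRF2), its inhibitor Keap1, 6 genes known as NRF2 targets (Nqo1, Hmox1, Gclc, Gclm, Txnrd1 and Srxn1) and the metallothionein genes Mt1 and Mt2. The rule takes them by gene name and uses no measured value, although the 10 were chosen with earlier results of these data known. Each has 1 row in the normalized count table of 30387 genes. All 10 passed the filter that left 18800 genes for testing (a mean over all 8 libraries of 5 or more).

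RNA-seq had been done on white adipocytes isolated from the epididymal fat of mice in 4 groups, with 2 libraries per group. WT animals were littermates of the Ad-Yap/Taz-KO (KO) animals, which carry Adipoq-Cre and Yap fl/fl;Taz fl/fl alleles, so that the deletion is limited to cells that have switched on the adiponectin promoter and is present from adipocyte formation on. Each genotype received either normal chow (NC) or a high-fat diet (HFD) for 4 weeks; the series text places the start of the diet in week 5 of age, whereas the methods give a later start. The study lists the 2 libraries of a group as separate mice, and the comparisons ask how loss of both coactivators and the diet, alone and together, changed adipocyte RNA.

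NRF2 is held in the cytosol and sent for degradation by KEAP1, a sensor whose cysteines react with electrophiles and oxidants. When KEAP1 is modified, NRF2 reaches the nucleus, pairs with small MAF proteins and binds antioxidant response elements, from which it drives genes of glutathione synthesis, thioredoxin reduction, quinone and heme breakdown and NADPH supply. Metallothioneins are small cysteine-rich proteins that bind zinc and copper; their genes are induced through metal response elements by the zinc sensor MTF1 and, in many tissues, by glucocorticoids. NRF2 acts largely through protein stability, so the RNA level of Nfe2l2 is not a measure of its activity.

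The promoters of Txnrd1 and Mt1, which were called between genotypes on HFD, and of Mt2, the other metallothionein gene, are shown first, because NRF2 and MTF1 act at such regions. Each is the 250 bases before a RefSeq gene start, from 5′ to 3′ on the strand of the gene, in build GRCm38.p6. Capitals mark matches on either strand to the core of the antioxidant response element (TGACNNNGC) or of the metal response element (TGCACNC or TGCGCNC). RefSeq gives 3 starts for Txnrd1, of which the one shown follows chr10:82858956-82859205 on the plus strand and is the gene start in the deposited table. The windows of Mt1 (chr8:94178839-94179088, plus strand) and Mt2 (chr8:94172368-94172617, plus strand) come from neighbouring genes. The Mt2 window ends upstream of the gene start in the deposited table (94172664). No Mt2 transcript in GENCODE M21 held the bases checked after this RefSeq start, so Mt2 positions refer to the RefSeq start alone. The same check also failed for Nfe2l2.
Txnrd1: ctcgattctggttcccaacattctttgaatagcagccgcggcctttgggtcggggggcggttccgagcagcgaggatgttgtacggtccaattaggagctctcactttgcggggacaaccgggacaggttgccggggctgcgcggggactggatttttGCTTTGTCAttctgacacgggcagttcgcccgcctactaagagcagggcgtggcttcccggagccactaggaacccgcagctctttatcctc
Mt1: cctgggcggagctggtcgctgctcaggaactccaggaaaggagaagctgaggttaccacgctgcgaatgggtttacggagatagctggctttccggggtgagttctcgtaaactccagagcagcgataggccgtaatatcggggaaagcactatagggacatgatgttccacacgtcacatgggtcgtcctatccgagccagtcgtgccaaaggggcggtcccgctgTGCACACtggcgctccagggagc
Mt2: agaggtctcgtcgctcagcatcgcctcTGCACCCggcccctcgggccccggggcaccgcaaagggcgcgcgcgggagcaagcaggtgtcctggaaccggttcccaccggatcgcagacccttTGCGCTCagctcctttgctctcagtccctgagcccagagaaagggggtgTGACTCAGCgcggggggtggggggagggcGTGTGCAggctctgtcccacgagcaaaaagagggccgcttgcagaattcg

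The Txnrd1 window held 1 match to the antioxidant core, on the minus strand at -92 to -84 from the start, and none to the metal core. In Mt2 there were 3 matches to the metal core and 1 to the antioxidant core; the latter, at -79 to -71, overlaps a match to the AP-1 motif TGANTCA. Mt1 had 1 match to the metal core, at -23 to -17. Whether most Mt1 RNA begins at this RefSeq start was not tested. Sites outside the window, or nearer another start, would be missed. Outside these genes, Nfe2l2 held 1 match to the antioxidant core, Gclm held 1 as well as 2 to the metal core, and Srxn1 held 1 match to the metal core and 2 to the AP-1 motif. Of all 32851 promoter windows of this length, 10.2% held the antioxidant core, 21.4% the metal core, 1.26% at least 3 metal cores and 6.75% the AP-1 motif. No window of these genes held GGAATG, the motif of the TEAD factors that carry YAP and TAZ, which was in 12.6% of all windows; a missing match says only that these letters are not in these 250 bases. Hmox1 and Gclc are named without a promoter.

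Library depth lay between 13.99 and 22.3 M reads on genes. The deposited values, here called normalized counts, are read counts that had been scaled by a size factor for each library, and 1 read was worth 0.795 to 1.135 of them. Both targeted genes were checked first. Wwtr1, which encodes TAZ, stood at 5594 and 4743 in WT NC, 2441 and 1957 in KO NC, 7121 and 6807 in WT HFD and 2060 and 2707 in KO HFD, and fell by 1.56 (log2) on HFD and by 1.24 on NC. Yap1 stood at 2776 and 2717 in WT NC, 1669 and 1699 in KO NC, 2468 and 2333 in WT HFD and 1549 and 2068 in KO HFD; its log2 fold change was -0.71 on NC, which was called with all libraries but not after averaging the WT HFD pair (adjusted p = 0.075), when low genes were kept (0.084) or with only the 2 groups compared in the fit (0.053), nor without either WT NC or either KO NC library (adjusted p = 0.15, 0.17, 0.078 and 0.07) or either WT HFD library (0.075 and 0.074), and -0.42 on HFD, which was not called. The 2 WT HFD libraries were closer to each other than those of any other group: their squared difference was 5.86 times the counting noise for genes of 1000 to 5000 normalized counts, against 25.9, 56.3 and 83.8 in WT NC, KO NC and KO HFD. All fold changes, means over the 8 libraries and plotted group means use both of them, and their values are printed singly, with no SD over the pair. Averaging the pair into 1 sample was run beside this. Its adjusted p is given where it ends the call of a gene named with its values, and its counts between genotypes on HFD where they change those of a list of pathway genes.

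Markers of adipocytes and of other cell types also moved with the groups. The summed normalized count of 11 adipocyte markers was 258178 and 285630 in WT NC, 206009 and 304235 in KO NC, 488240 and 480363 in WT HFD, and 225949 and 112590 in KO HFD. That of 14 macrophage markers was 5799 and 5457, 43417 and 26968, 2631 and 2729, and 61666 and 47985 in the same order. On HFD, 10 of 11 adipocyte markers were called lower in KO (9 after averaging the WT HFD pair) and 13 of 14 macrophage markers higher, and 5 of 6 fibroblast and progenitor markers were called higher; on NC the macrophage count was again 13 of 14 and no adipocyte marker was called. No listed marker was at 0 in every library. In these bulk samples, fewer cells of a type and less RNA per cell cannot be told apart, and the part of these markers in the results below was not tested.

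**Figure D1:**
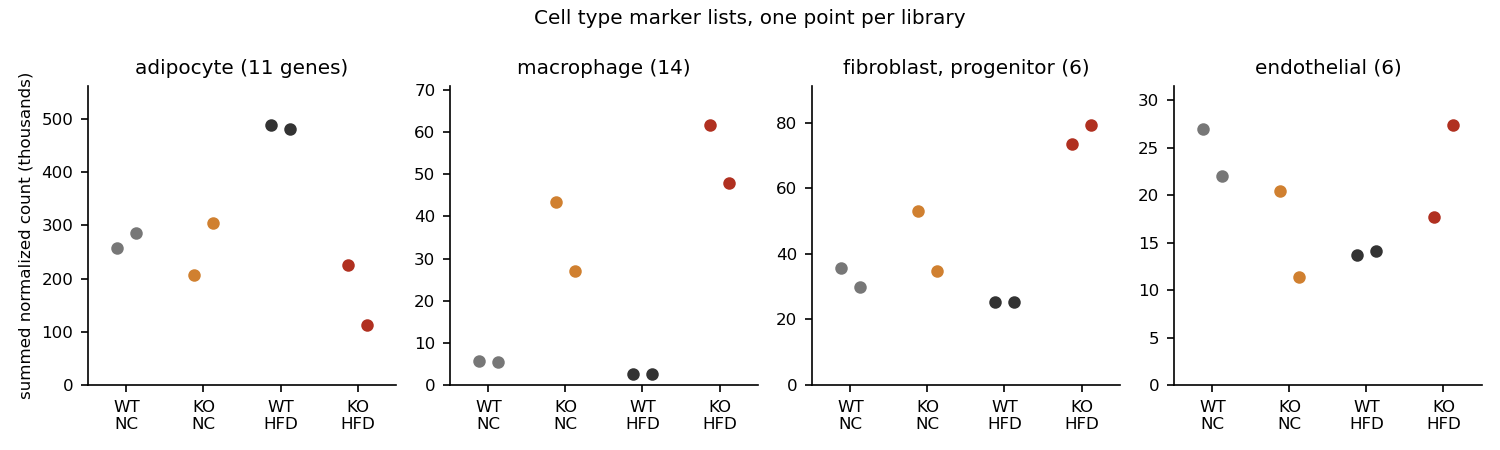
Summed normalized counts of 4 marker lists in each library (points; 2 per group). The macrophage sum is 26968 or more in every KO library and 5799 or less in every WT library, and the adipocyte sum is lowest in KO HFD replicate 2, at 112590.

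Per kilobase of exon, Hmox1 (heme oxygenase, which cleaves heme) had the highest mean of the 10 genes, 3040 normalized counts per kb over the 8 libraries. The exon bases were joined over all transcripts of a gene. Those of Mt1 (1246) cover its whole span, so any intron counts as exon. Its level per kb may thus be understated, and its place below Hmox1 is uncertain. Mt1 followed with 1860, Srxn1 (sulfiredoxin, which repairs over-oxidized peroxiredoxins) with 637, Txnrd1 (cytosolic thioredoxin reductase) with 612, Nfe2l2 with 395 and Gclc (catalytic subunit of glutamate-cysteine ligase, the rate-limiting enzyme of glutathione synthesis) with 296. Mt2 had 241, Gclm (the modifier subunit of the same ligase) 101, Keap1 93.6 and Nqo1 (NAD(P)H quinone dehydrogenase) 34.1. The ranges over the 8 libraries of neighbours in this order overlapped, apart from Mt2 (129 to 379) above Gclm (82.8 to 118) and Keap1 (79.5 to 128) above Nqo1 (17.4 to 59.2). Nqo1 thus rested on few reads, 28.9 to 92.1 per library after undoing the scaling.

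**Figure D2:**
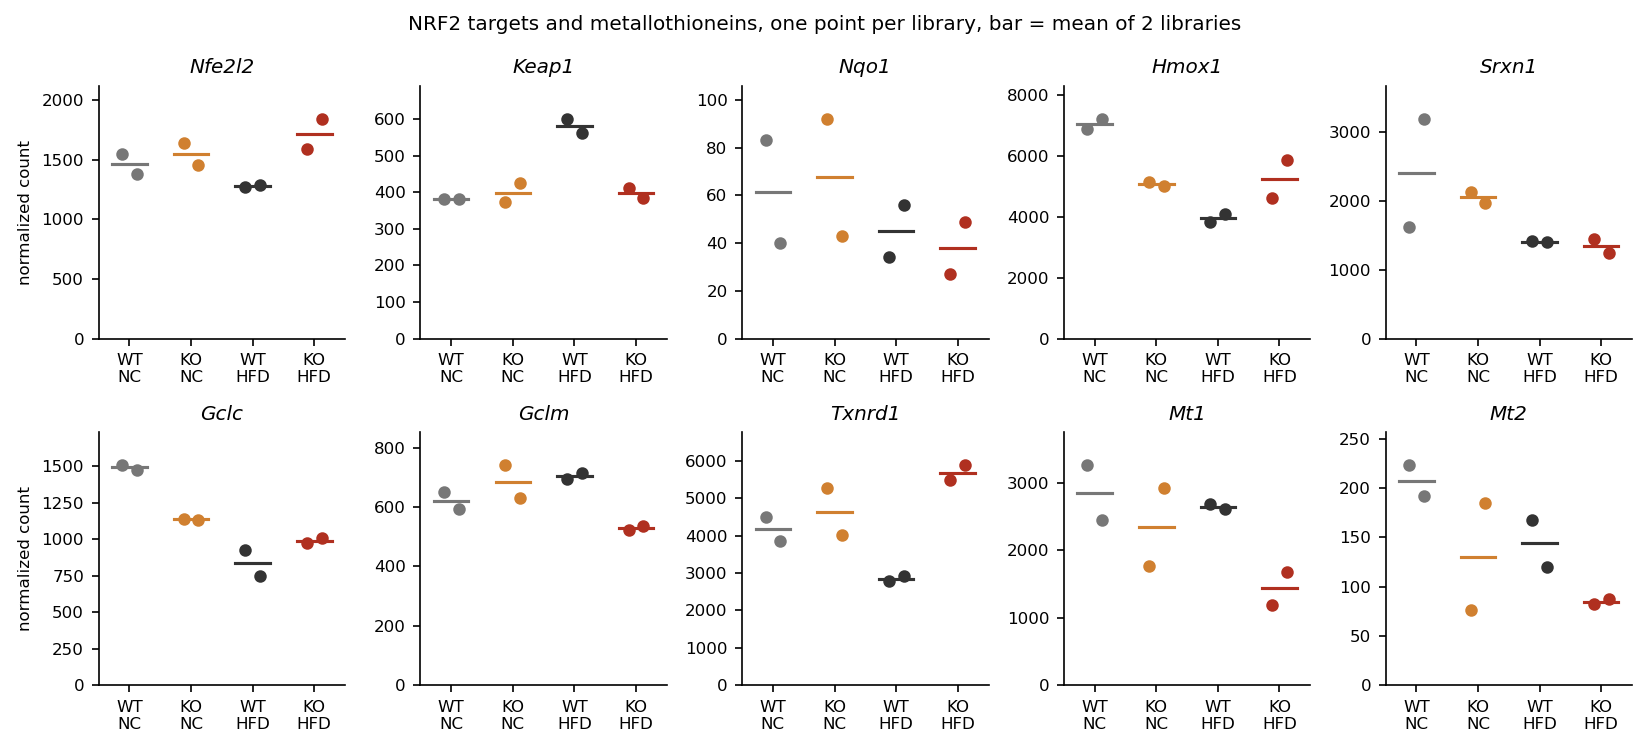
Normalized count (linear axes from 0) of each gene in the 8 libraries; points are libraries and bars the mean of the 2 in a group. Txnrd1 in KO HFD (5481 and 5881) lies above both WT HFD libraries (2778 and 2926), Mt1 in KO HFD (1196 and 1683) lies below all WT libraries (2446 to 3262), and the 2 libraries of a group lie far apart for Nqo1.

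On HFD, Txnrd1 rose and Mt1 fell in KO, and the other 8 genes were not called. A gene was called when limma's adjusted p was at most 0.05 and its log2 fold change at least 0.59 in size. By this rule 32.2% of all tested genes were called between KO and WT on HFD, so that 2 of 10 is below the background share, and the median log2 fold change of the 10 genes was -0.16 beside 0.09 over all genes tested. By sign alone, 4 of the 10 were higher and 6 lower in KO, which turned to 6 and 4 at equal library totals (median 0.22) and to 5 and 5 by quantile normalization (median -0.12) and without WT HFD replicate 2 (median 0.01), KO HFD replicate 1 (-0.01) or KO HFD replicate 2 (-0.2). Among all genes 17.1% were called higher and 15.1% lower; scaled to the same total per library, the calls split into 4617 higher and 1367 lower instead of 3213 and 2840.

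Txnrd1 uses NADPH to reduce thioredoxin, the electron donor of peroxiredoxins. Its normalized counts were 4500 and 3852 in WT NC, 5278 and 4007 in KO NC, 2778 and 2926 in WT HFD, and 5481 and 5881 in KO HFD. The KO HFD libraries were above, and the WT HFD libraries below, all others. Between KO and WT on HFD the gene was 1.99 times higher (log2 0.99, SE 0.16, 95% interval 0.64 to 1.35, adjusted p = 0.00061 by limma). This call held under each of the 7 other settings, with log2 fold changes between 0.99 and 1.38 and adjusted p-values up to 0.015, and without any 1 library. On NC the log2 fold change was 0.14 (95% interval -0.21 to 0.5), with overlapping groups.

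Mt1 had the higher normalized count of both metallothionein genes in every library. It stood at 3262 and 2446 in WT NC, 1764 and 2931 in KO NC, 2693 and 2608 in WT HFD, and 1196 and 1683 in KO HFD. Both KO HFD libraries were below every other library, while the KO NC libraries were far apart and overlapped WT NC. On HFD the level in KO was 0.536 times that in WT (log2 -0.9, SE 0.24, 95% interval -1.42 to -0.39, adjusted p = 0.011 by limma). Averaging the WT HFD pair ended the call (adjusted p = 0.081), as did keeping low genes (adjusted p = 0.057). It was also lost without WT HFD replicate 1 (0.079), without WT HFD replicate 2 (0.072) and without KO HFD replicate 1 (log2 -0.65, adjusted p = 0.076), and under both other scalings described below.

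Mt2 lay in the same direction at a lower level, at 223 and 192 in WT NC, 76 and 185 in KO NC, 168 and 120 in WT HFD, and 82 and 87 in KO HFD. Both KO HFD libraries were below both WT HFD libraries, but the log2 fold change of -0.74 (95% interval -1.58 to 0.1, adjusted p = 0.16) was not called. On NC it was -0.8 (95% interval -1.64 to 0.04), and both KO values were below both WT values, 1 of them only narrowly. With 1 library left out, the log2 fold change of Mt2 on NC ran from -1.43 to -0.16. Mt1 was 12.7 to 23.2 times as high as Mt2 in normalized counts. The Mt2 values are uncertain: 73.5% of its exon bases in GENCODE M21 lie under Gm45774 on the opposite strand, use of strand in the counting is not stated, and reads on more than 1 gene had been left out. Gm45774 itself stood at 93 and 107 in WT HFD and at 26 and 33 in KO HFD. Mt1 has no such overlap, but near-identical stretches of metallothionein genes can lose reads where those aligned to several places are excluded.

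The regulators did not pass the rule on HFD. Nfe2l2 was 1270 and 1283 in WT HFD and 1590 and 1841 in KO HFD, without overlap, beside 1543 and 1378 in WT NC and 1636 and 1456 in KO NC. Its log2 fold change on HFD was 0.42 (95% interval 0.09 to 0.76, adjusted p = 0.051). Keap1 was 600 and 562 in WT HFD, which were the highest values of the 8 libraries, and 411 and 383 in KO HFD, close to the 380 of both WT NC libraries and the 373 and 424 of KO NC. Its log2 fold change of -0.55 (adjusted p = 0.036) was under the fold limit. A share of 10.9% of the Keap1 exon bases lies under Gm16754 on the opposite strand, which had at most 12 normalized counts in any library.

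Of the targets, Hmox1 was 3812 and 4097 in WT HFD and 4603 and 5856 in KO HFD, with a log2 fold change of 0.39 (95% interval 0.06 to 0.73, adjusted p = 0.065). Gclc was 927 and 746 in WT HFD and 972 and 1007 in KO HFD, with a log2 fold change of 0.25 (95% interval -0.1 to 0.6). Gclm lay in the other direction, at 693 and 714 in WT HFD and 521 and 536 in KO HFD (log2 -0.41, 95% interval -0.78 to -0.04, adjusted p = 0.081). A stretch of 4.7% of the Gclm exon bases lies under Gm17494 on the opposite strand, which stood at 36 and 45 in WT HFD and 66 and 87 in KO HFD. Gm6061, on the same strand and without a row in the deposited table, lies over 3.9%. The groups of Hmox1, Gclc and Gclm did not overlap on HFD, but with 2 against 2 libraries an exact permutation test cannot go below p = 0.333. The share of all tested genes without overlap was not counted, here or wherever groups are said not to overlap. The catalytic and the modifier subunit of glutamate-cysteine ligase differed in sign, and neither was called. Srxn1 (1411 and 1397 against 1442 and 1244) and Nqo1 (34 and 56 against 27 and 49) overlapped between WT and KO. For Nqo1 the 95% interval on HFD ran from -1.46 to 0.95, so that a rise and a fall past the fold limit both lay within it.

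**Figure D3:**
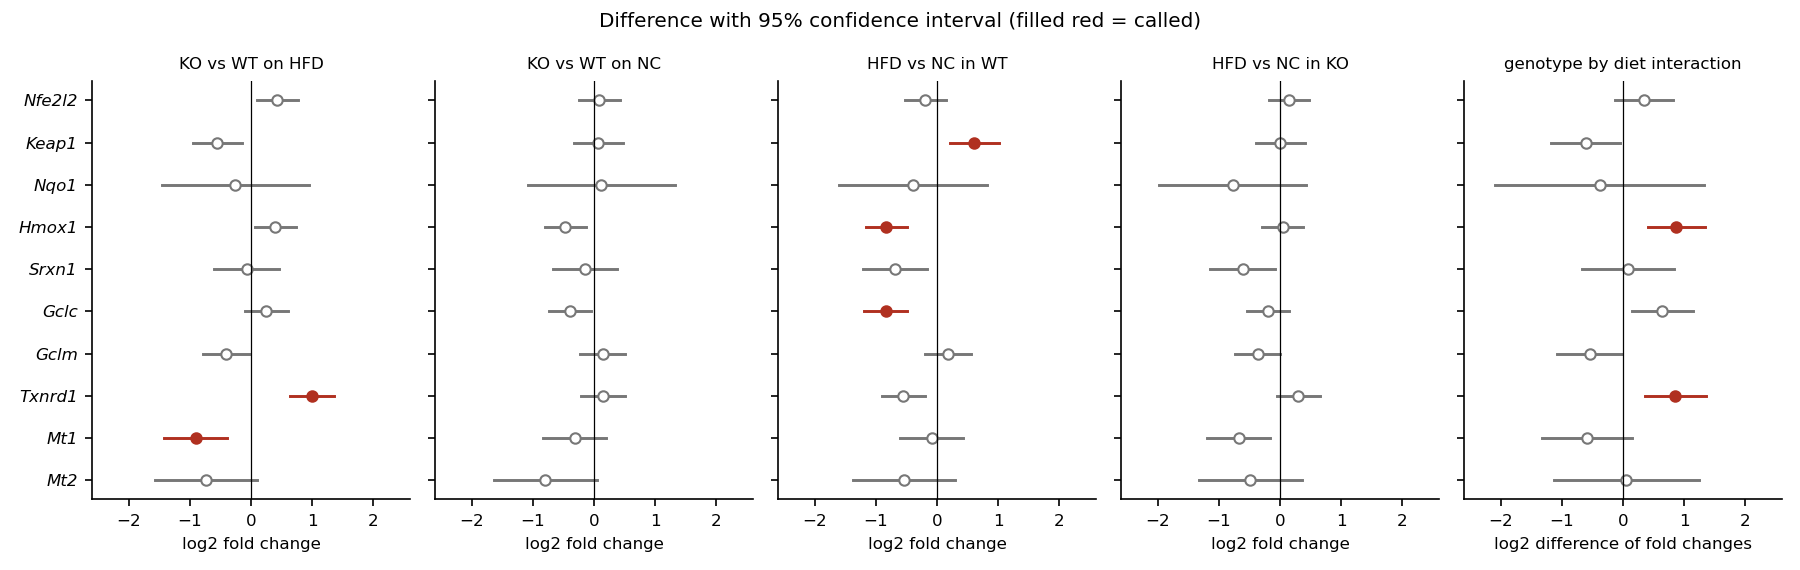
Log2 difference of each gene with its 95% confidence interval in 4 comparisons and in the genotype by diet interaction (limma); filled red points were called. Red points are Txnrd1 and Mt1 for KO vs WT on HFD, Keap1, Hmox1 and Gclc for HFD vs NC in WT, and Hmox1 and Txnrd1 for the interaction; there are none for KO vs WT on NC or HFD vs NC in KO.

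On NC, none of the 10 genes was called between KO and WT by limma (2 had an unadjusted p under 0.05), with 4.71% of all tested genes called (3.21% higher and 1.5% lower). Those 2 were Hmox1 and Gclc. Hmox1 was 6886 and 7201 in WT NC and 5130 and 5005 in KO NC (log2 -0.47, 95% interval -0.81 to -0.14, adjusted p = 0.12). Gclc was 1506 and 1478 in WT NC and 1140 and 1131 in KO NC (log2 -0.39, 95% interval -0.74 to -0.05, adjusted p = 0.23). Neither gene overlapped between the groups, and in both the sign on NC was opposite to that on HFD. Nfe2l2, Keap1, Txnrd1 and Gclm differed by at most 0.14 in log2 on NC, with overlapping groups.

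In WT, Hmox1 and Gclc were called lower and Keap1 higher on HFD than on NC. These are 3 of 10 genes called, beside 18% of all tested genes (8.74% higher and 9.22% lower). Those shares are 1643 and 1734 genes, or 470 and 3567 when scaled to the same total. The median log2 fold change of the 10 was -0.47 beside -0.08 over all genes tested. It was -0.87 beside -0.48 at equal totals, -0.43 beside 0.03 by quantiles, and -0.27 beside -0.05 without WT NC replicate 1. The WT HFD libraries enter this comparison as one of its 2 groups, as they do that between genotypes on HFD, so the 2 comparisons share them. Hmox1 fell by 0.83 (log2, SE 0.15, adjusted p = 0.0042 by limma), to 0.561 times its NC level. Gclc fell by 0.84 (SE 0.16, adjusted p = 0.0048). Keap1 was 1.53 times higher (log2 0.61, SE 0.18, adjusted p = 0.036). Markers of other cell types moved in the same comparison: 10 of 14 macrophage markers (median log2 fold change -1.12), 3 of 6 endothelial markers (-0.78) 3 of 6 fibroblast and progenitor markers, 3 of 5 erythroid markers (-1.36), 2 of 5 lymphocyte markers, 1 of 3 neutrophil markers and 1 of 6 mesothelial markers were called lower, and 2 of 11 adipocyte markers and 1 fibroblast and progenitor marker higher. After averaging the WT HFD pair, 1 macrophage, 1 fibroblast and progenitor and 1 erythroid marker were called lower and 1 fibroblast and progenitor marker higher, and no marker of the other types was called. The summed endothelial count was 27002 and 22053 in WT NC and 13738 and 14131 in WT HFD, the summed erythroid count was 1675 and 1164 against 360 and 446, and the part of these markers in the 3 calls was not tested. Averaging the WT HFD pair ended all 3 calls, with adjusted p-values of 0.066 for Hmox1, 0.059 for Gclc and 0.19 for Keap1.

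Single libraries also decided these 3 calls. The Hmox1 call was lost without WT HFD replicate 1 (adjusted p = 0.063) or 2 (0.05, just over the limit before rounding), and that of Gclc without WT NC replicate 1 (0.062) or WT HFD replicate 2 (0.086). Keap1 was lost without either WT NC library (0.16 and 0.13) or either WT HFD library (0.19 and 0.15), with the block for replicate number (0.06), and when low genes were kept (0.053). Txnrd1 was lower on HFD by a log2 fold change of -0.55 (adjusted p = 0.036), under the fold limit. Srxn1 had values of 1610 and 3184 in WT NC, farther apart than in any other group, and its log2 fold change of -0.69 (adjusted p = 0.065) became -1.18 (adjusted p = 0.014) without WT NC replicate 1, the lower of both, and -0.2 (adjusted p = 0.54) without WT NC replicate 2, the higher. Nfe2l2, Gclm, Mt1, Mt2 and Nqo1 were not called, with log2 fold changes of -0.19, 0.18, -0.09, -0.54 and -0.39.

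In KO, the diet moved none of the 10 genes past the rule by limma (2 had an unadjusted p under 0.05), with 1.07% of all tested genes called (0.383% higher and 0.691% lower). Mt1 had a log2 fold change of -0.68 (95% interval -1.2 to -0.16, adjusted p = 0.19) between HFD and NC in KO, and was called without KO NC replicate 1, the lower of the KO NC libraries (log2 -1.05, adjusted p = 0.029); without KO NC replicate 2, the higher, it was -0.31 (adjusted p = 0.76). Srxn1 had one of -0.61 (adjusted p = 0.26). Hmox1, which fell with the diet in WT, had 5130 and 5005 on NC and 4603 and 5856 on HFD in KO, a log2 fold change of 0.04 with a 95% interval of -0.3 to 0.37. Keap1 showed 373 and 424 on NC and 411 and 383 on HFD in KO.

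Whether the diet changed the effect of the knockout was tested as an interaction. Hmox1 (0.87 on the log2 scale, SE 0.22, adjusted p = 0.019) and Txnrd1 (0.85, SE 0.23, adjusted p = 0.027) were called, both with a higher KO-to-WT ratio on HFD than on NC; 17.4% of all tested genes were called for the interaction, 8.69% higher and 8.73% lower (1633 and 1641 genes, or 2610 and 619 at the same total). In the same term 11 of 14 macrophage, 5 of 6 endothelial, 5 of 6 fibroblast and progenitor and 4 of 5 erythroid markers were called higher and 9 of 11 adipocyte markers lower; averaging the WT HFD pair left 7, 0, 3, 1 and 0 of these. Their part in both calls was not tested. After averaging the WT HFD pair neither passed (adjusted p = 0.098 for Hmox1 and 0.12 for Txnrd1), nor when low genes were kept (0.063 and 0.08). Hmox1 was also lost without WT NC replicate 1 (0.076) or 2 (0.07), KO NC replicate 2 (0.052) or WT HFD replicate 1 (0.099) or 2 (0.082). Txnrd1 was lost without those 5 libraries (0.12, 0.052, 0.087, 0.12 and 0.1 in the same order) and without KO HFD replicate 2 (0.063). Mt1 was called for the interaction only without KO NC replicate 1 (log2 -0.95, adjusted p = 0.041) and stood at -0.22 (adjusted p = 0.67) without KO NC replicate 2; the other 7 genes were not called as deposited. Gclc was called for the interaction at equal totals (log2 1.07, adjusted p = 0.012) and by quantiles (0.84, adjusted p = 0.035), the other scalings described next.

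The values also depended on how the libraries were scaled. The WT HFD libraries have the largest totals, and their most abundant gene, Scd1, holds 12.3% and 12.4% of them. When all libraries were scaled to the same total, the median log2 fold change of all tested genes moved from 0.09 to 0.47 for KO vs WT on HFD and from -0.08 to -0.48 for HFD vs NC in WT. Against that median, Txnrd1 was 0.9 higher as deposited, 0.91 higher at equal totals and 1.45 higher after quantile normalization. Mt1 was at -1 as deposited, -0.98 at equal totals and -0.57 after quantile normalization, relative to the median of all genes; its own log2 fold change was -0.52 (adjusted p = 0.13) at equal totals and -0.66 (adjusted p = 0.063) by quantiles. Nfe2l2 and Hmox1 were called higher in KO on HFD under both other scalings, with log2 fold changes of 0.81 and 0.78 at equal totals and 0.61 and 0.8 by quantiles, and Gclc was called at equal totals (0.64). Relative to the median, Nfe2l2 stood at 0.33, 0.34 and 0.71 and Hmox1 at 0.3, 0.31 and 0.9 as deposited, at equal totals and by quantiles. The fall of Hmox1 and Gclc with HFD in WT was called under all 3 scalings, whereas Keap1 was called only as deposited. Txnrd1 and Srxn1 were called lower on HFD in WT under both other scalings, with log2 fold changes of -0.96 and -1.1 at equal totals and -0.8 and -0.89 by quantiles, and Nfe2l2 at equal totals (-0.61).

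**Figure D4:**
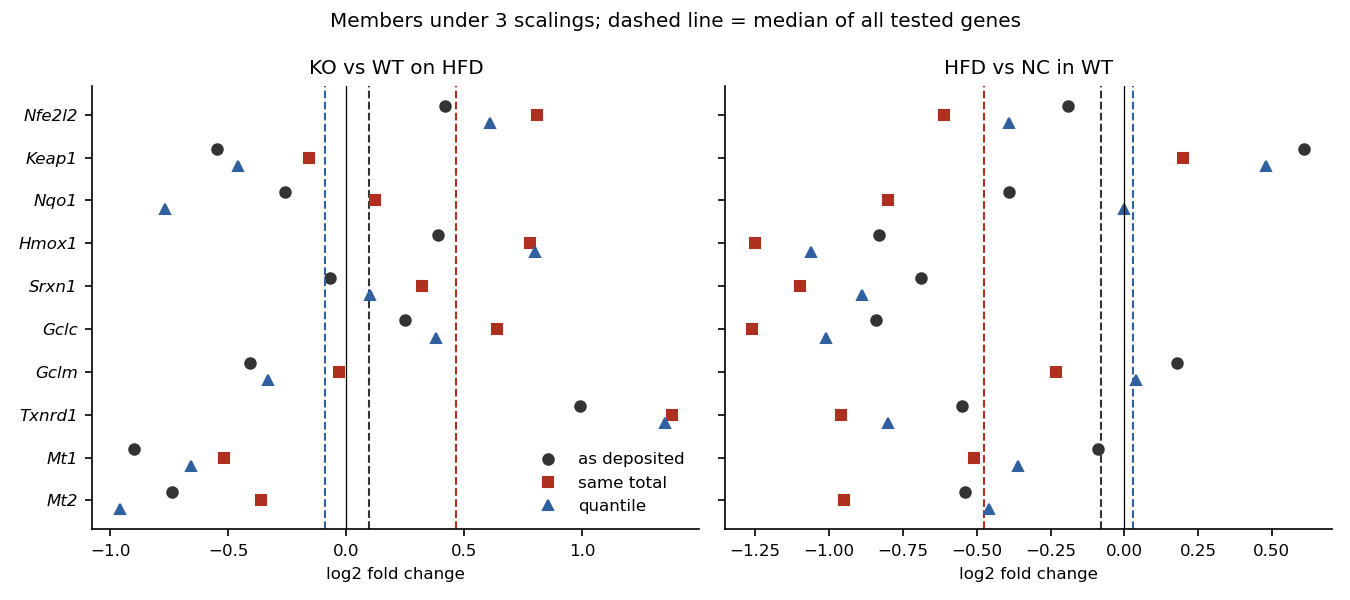
Log2 fold change of each gene under 3 scalings of the libraries, for KO vs WT on HFD (left) and HFD vs NC in WT (right); dashed lines mark the median of all tested genes under the same scaling. Equal totals shift the genes together with that median (0.47 and -0.48), while quantile normalization moves Txnrd1 (1.35) and Hmox1 (0.8) away from it.

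Genes for proteins that hold, pair with or compete with NRF2 went in both directions. The counts of this list and those below stand beside all tested genes, of which 17.1% were called higher and 15.1% lower on HFD. On NC these shares were 3.21% and 1.5%. Of 8 listed genes, 1 was called higher and 2 lower in KO on HFD, with a median log2 fold change of 0.06 beside 0.09 over all genes; averaging the WT HFD pair left 1 and 1. At equal totals 3 were called higher and 1 lower (median 0.44), and by quantiles 3 higher and none lower (median 0.38). Mafk, a small MAF partner, rose by a log2 fold change of 0.74 (2094 and 2054 in WT HFD against 3283 and 3678 in KO HFD). Nfe2l1, the NRF2 relative that drives proteasome genes, fell by 0.98 (16834 and 17242 against 9948 and 7456), although not under quantile normalization, where it was -0.42. Rbx1, part of the ubiquitin ligase that KEAP1 recruits, was called lower (log2 -0.83), a call lost after averaging the WT HFD pair (adjusted p = 0.15), at equal totals (-0.45), by quantiles (adjusted p = 0.053), with the block for replicate number (0.06), when low genes were kept (0.12) and without either WT HFD library (0.071 and 0.3) or either KO HFD library (0.055 and 0.22). On NC only 1 of the 8 was called, lower; it was Maff.

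Glutathione genes outside the 10 fell more often than they rose on HFD, where 15.1% of all tested genes were called lower and 17.1% higher. On HFD, 10 of 19 were called lower in KO and 1 higher, with a median log2 fold change of -0.85; at equal totals, and after averaging the WT HFD pair, the counts were 6 lower and 1 higher. The exception was Slc7a11, the cystine importer that feeds glutathione synthesis and a known NRF2 target. It stood at 148 and 113 in WT NC, 609 and 509 in KO NC, 87 and 66 in WT HFD, and 483 and 489 in KO HFD. Every KO library was above every WT library, and the gene was called on HFD (log2 2.66) and on NC (2.1) under every setting. The glutathione S-transferases Gstm1 and Gstm2, also known NRF2 targets, had the opposite sign: Gstm1 fell by 2.53 on HFD (4247 and 4283 against 676 and 801) and Gstm2 by 2.44, and both were also called lower on NC (-0.85 and -1.08). The Gstm1 call on NC was lost without WT NC replicate 1 (adjusted p = 0.13) or KO NC replicate 1 (0.059), when low genes were kept (0.051) and with only the 2 groups compared in the fit (0.059). On NC, 4 of the 19 genes were called higher and 5 lower. Members of the Gstm family are close in sequence, so that reads aligned to several places could have been lost.

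Thioredoxin and peroxiredoxin genes were lower in KO where they were called on HFD, beside 15.1% of all tested genes called lower. Those called were Txn2, Txnrd2, Txnrd3, Prdx5, Prdx6 and Sesn2. Of the same list, Txn1 (log2 0.12), Prdx1 (0.08) and Prdx2 (-0.28) were not called on HFD. There, 6 of 12 were called lower in KO and none higher (median -0.58); at equal totals 3 were lower, by quantiles 4 and after averaging the WT HFD pair 3. The peroxiredoxin Prdx6 fell by 2.57 (6667 and 6563 in WT HFD against 1321 and 942 in KO HFD), Prdx5 fell by 1.98, and the stress-induced Sesn2 fell by 1.3. On NC, 1 gene was called higher and 2 lower.

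All 6 listed genes of NADPH supply and the pentose phosphate pathway were called lower in KO on HFD (median -1.12), beside 15.1% of all tested genes. None of the 6 was called on NC. At equal totals 3 of them passed, by quantiles also 3 and after averaging the WT HFD pair 4, each lower. Me1, the malic enzyme, was 9643 and 10011 in WT HFD and 4050 and 1716 in KO HFD (log2 -1.9). G6pdx, which opens the pentose phosphate pathway, was 6792 and 6768 in WT HFD and 2413 and 1395 in KO HFD (log2 -1.89). Pgd, the next dehydrogenase of that pathway, fell by 1.36 (7626 and 7941 in WT HFD against 4305 and 2147 in KO HFD). With 1 library left out, its log2 fold change ran from -1.86 to -0.85. Tkt (log2 -0.89) and Taldo1 (-0.81), named after their values were seen, belong to the branch of that pathway that makes no NADPH, and neither call held at equal totals, by quantiles, when low genes were kept, with only the 2 groups compared in the fit, without either WT HFD library or KO HFD replicate 2, or after averaging the WT HFD pair (adjusted p = 0.098 and 0.11). Me1, G6pdx and Pgd also serve fat synthesis. KO HFD replicate 2, the library with the lowest adipocyte marker sum (112590), had the lowest value of Me1, G6pdx and Pgd. Whether these are linked was not tested.

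**Figure D5:**
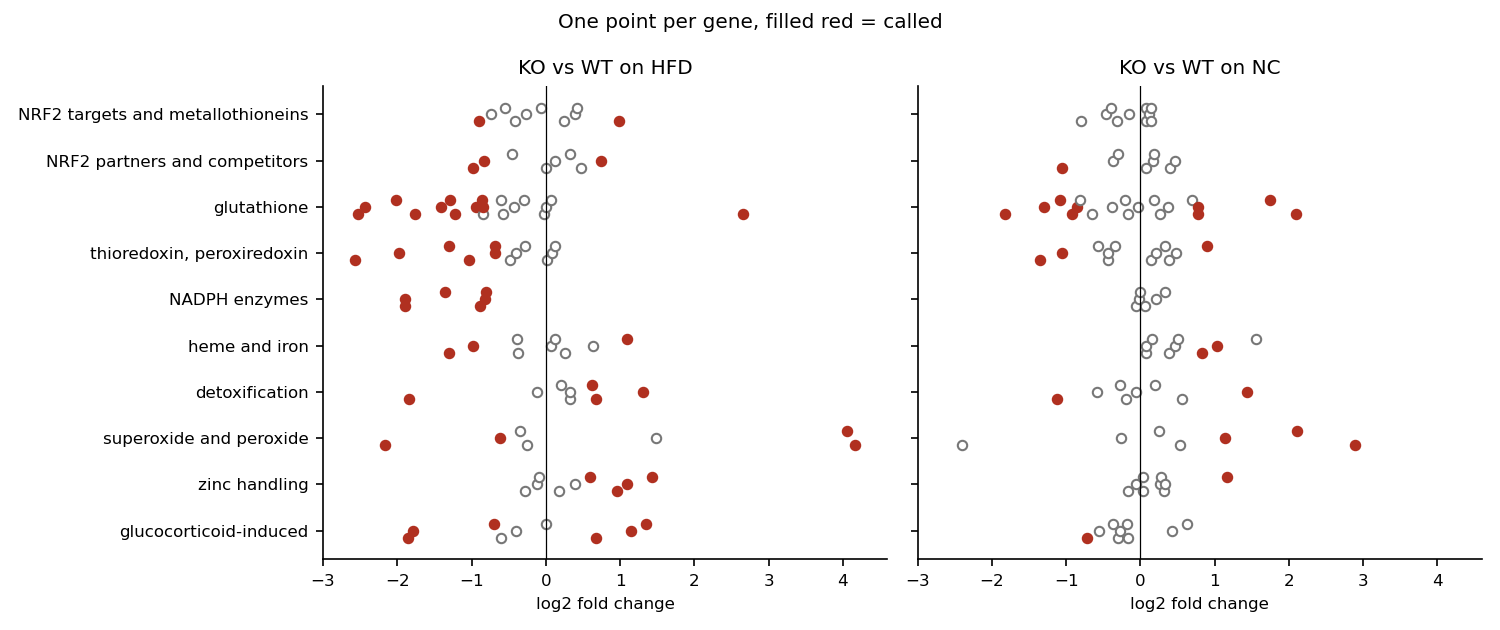
Log2 fold change between KO and WT on HFD (left) and NC (right) for each listed gene (1 point each; filled red means called). On HFD the 6 genes of NADPH supply and the pentose phosphate pathway lie between -1.9 and -0.81 and the 10 NRF2 targets and metallothioneins between -0.9 and 0.99; on NC none of these 16 points is red.

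Heme and iron genes were called on HFD about as often as all tested genes (32.2%), and in both directions. Of 9, 1 was called higher (Ftl1, a ferritin chain, log2 1.1, 984 and 1024 in WT HFD against 2321 and 1989 in KO HFD) and 2 lower on HFD (Slc48a1, a heme transporter, -1.31, and Fech, the last enzyme of heme synthesis, -0.98). On NC 2 of the 9 were called higher and none lower. Ferritin light chain has many processed copies, so its count is uncertain. Of 8 detoxification genes, 3 were called higher and 1 lower on HFD (median 0.33), or 1 and 1 after averaging the WT HFD pair. Akr1b8, an aldo-keto reductase, was higher in every KO library (477, 367, 509 and 367) than in every WT library (130, 184, 189 and 160), and was called on HFD (log2 1.31) and on NC (1.43), the latter lost without WT NC replicate 1 (adjusted p = 0.092) or KO NC replicate 1 (0.054). Abcc4, an exporter, rose by 0.68 on HFD, a call lost after averaging the WT HFD pair (adjusted p = 0.13), when low genes were kept (0.052) and without WT HFD replicate 1 (0.084) or 2 (0.17) or KO HFD replicate 2 (0.17). Aox1, aldehyde oxidase, fell by 1.84.

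Genes that make or remove superoxide and peroxide included large changes in both directions. Among all tested genes, 17.1% were called higher and 15.1% lower on HFD. Cyba and Cybb, subunits of the phagocyte NADPH oxidase, rose by log2 fold changes of 4.17 and 4.06 on HFD and 2.11 and 2.89 on NC. The macrophage marker sums given above moved with them. Sod3, the extracellular superoxide dismutase, fell by 2.17 on HFD (10221 and 10227 in WT HFD against 3376 and 1536 in KO HFD) and was not called on NC (0.25). Of 7 genes, 2 were called higher and 2 lower on HFD (2 and 1 after averaging the WT HFD pair), and 3 higher on NC.

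Zinc handling genes were higher where they were called, unlike Mt1. On HFD, 17.1% of all tested genes were called higher in KO and 15.1% lower. Of 9 tested (Mt3 and Mt4 were listed but below the filter), 4 were called higher in KO on HFD and none lower, with a median log2 fold change of 0.4, and at equal totals 5 were higher and after averaging the WT HFD pair 3. The zinc importers Slc39a8 (log2 1.43, 140 and 82 in WT HFD against 264 and 320 in KO HFD), Slc39a14 (1.1) and Slc39a10 (0.96) were among them, and Slc39a14 was also called on NC (1.17). Without WT HFD replicate 2 the Slc39a8 call was lost (adjusted p = 0.052), and without WT NC replicate 2 (0.19) or KO NC replicate 2 (0.095) that of Slc39a14 on NC, which was also lost when low genes were kept (0.079) and with only the 2 groups compared in the fit (0.072). Mtf1, the zinc sensor, was not called (log2 0.18 on HFD). Of 9 genes known to be induced by glucocorticoids, 3 were called lower on HFD, with Tsc22d3 (-1.85) and Zbtb16 (-1.79) among them, and 3 higher, with Pdk4 (1.35) among them; averaging the WT HFD pair left 2 lower and 3 higher. On NC 1 was called lower and none higher.

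The genes whose pattern over the 8 libraries lay closest were found by the root mean square difference of log2 values, each gene set to its own mean, among genes whose mean was 50 or more. For Nfe2l2 these were Rapgef6 (0.0434), Nup153 (0.0562) and Ddx3x (0.0614), beside a spread of Nfe2l2 around its own mean of 0.172. Hmox1 was closest to Rmnd5b (0.0939), Tcf7l1 (0.0942) and Pnp (0.0971), with a spread of its own of 0.31. Mt1 was closest to Isg20 (0.115), Zfp974 (0.152) and Sema5a (0.17), against 0.459. For Mt2 the nearest were Gata6 (0.165), Ccdc77 (0.206) and Chac1 (0.216), against 0.577, and for Nqo1 they were Alkbh2 (0.208), Serpine3 (0.258) and 4930545L23Rik (0.264), against 0.557. No other of the 10 genes was among these neighbours.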

How the data were processed

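RNA-seq libraries of isolated adipocytes, 2 per group, had been made with RiboGone rRNA depletion and a SMARTer Stranded Total RNA kit. Trimming with Reaper, alignment to GRCm38 by STAR 2.5.2b and counting on exons by featureCounts 1.5.1, without reads on several genes or places, were done by the authors, whose notes also name DESeq2 1.14.1. The deposited values are a score of its own kind: the authors scaled the counts by a size factor for each library and then rounded them to whole numbers, so that 50.6% of tested genes have a value that fits more than 1 whole read number. Use of strand in counting and the size factor method are not given in the sources used here. The table holds no columns of the authors' own comparisons that were used.

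Samples were grouped and numbered as labelled. The value of 1 read per library was estimated from the gaps in low values and gave depths of 13.99 to 22.3 M reads. Values were tested as log2(value + 1) with limma 3.58.1 in R 4.3.3 (trend, 4 group means in 1 fit, 4 residual degrees of freedom), on genes with a mean of at least 5, with Benjamini-Hochberg adjustment over 18800 genes; fold changes on this scale understate those of low genes. Calls needed an adjusted p no higher than 0.05 with a log2 fold change no smaller than 0.59 in size. The scripts were tested on simulated data. With 2 against 2 libraries, an exact permutation test cannot go below p = 0.333. Levels per kb use the exon bases of GENCODE M21, and promoters come from RefSeq (GRCm38.p6), which held 8 of the 10 genes. Replicate numbers do not pair the samples; other settings are given at the end.

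The 10 genes and the lists were chosen with earlier results of these data known. Beside the 10, the rule for named genes took Yap1 and Wwtr1, up to 3 genes per list called in KO vs WT on HFD with the largest log2 fold change and a mean of at least 50, and the 3 nearest patterns of 5 genes; other genes named were chosen after their values were seen.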

Additional observations from a re-analysis of the deposited data

Results flagged for a closer look

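By limma's interaction term, KO differed from WT unequally on HFD and NC for 2 of the 10 genes, where 17.4% of all tested genes were called. The interactions called among the listed genes are given as a description, since those genes were named for a large fold change on HFD, which enters the interaction. Each value is the log2 fold change between KO and WT on HFD minus that on NC. Among the 10, these were Hmox1 (0.87; 0.39 on HFD and -0.47 on NC) and Txnrd1 (0.85; 0.99 and 0.14).

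Among NRF2 partners, Mafk had 1.12 (0.74 on HFD and -0.37 on NC) and Nfe2l1 -1.15 (-0.98 and 0.17). Maff, named after its value was seen, had 1.05 (0 and -1.05), a call lost after averaging the WT HFD pair (adjusted p = 0.062) and without WT NC replicate 1 (0.06) or WT HFD replicate 2 (0.064). In the glutathione and peroxiredoxin lists, the values were -1.68 for Gstm1, -1.36 for Gstm2, -1.22 for Prdx6 and -1.41 for Prdx5; the first 3 were called lower in KO on both diets, and Prdx5 was not called on NC (-0.57). The NADPH enzymes had -1.84 for Me1, -1.89 for G6pdx and -1.57 for Pgd, with fold changes on NC between -0.06 and 0.21. Taldo1, named after its value was seen, had -1.14, which was not called after averaging the WT HFD pair (adjusted p = 0.12), at equal totals (0.095), by quantiles (0.13), when low genes were kept (0.12) or without any 1 library other than KO NC replicate 1 and KO HFD replicate 1 (0.058 to 0.12). Slc48a1 had -1.38 and Fech -1.06. Of the superoxide genes, Cyba had 2.06 and Cybb 1.16, both called higher in KO on both diets, and Sod3 had -2.41. The glucocorticoid-induced genes Tsc22d3, Zbtb16 and Pdk4 had -1.54, -1.41 and 0.93.

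With the WT HFD libraries as 1 sample, 4 of the 19 interactions of genes named by the rule were called (Gstm1, Gstm2, G6pdx and Sod3, with adjusted p-values up to 0.043) and 15 were not (0.052 to 0.12). Those 4 were called under every other setting and without any 1 library. All 15 others were also lost without WT NC replicate 1 (0.06 to 0.15), 14 of them without at least 1 of the WT HFD libraries, and 13 when low genes were kept (0.052 to 0.13; Mafk and Pdk4 were not lost). Fech (-0.63, adjusted p = 0.11) and Zbtb16 (-0.98, 0.092) were lost at equal totals, and Fech (0.067), Zbtb16 (0.083), Nfe2l1 (0.071) and Pgd (0.053) by quantiles. Fech was called in only 2 and Zbtb16 in only 2 of the 8 fits with a library left out.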

How the results depend on the processing

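Of 340 values of the 10 genes over the 5 comparisons under the planned settings (libraries left out aside), 305 kept their direction and call, 15 lost a call, 12 gained one and 8 changed sign. The sign changes, none of them called, were at the same total for Keap1 in HFD vs NC in KO (0.01), Nqo1 (0.12) and Srxn1 (0.32) in KO vs WT on HFD, Gclm in HFD vs NC in WT (-0.23) and Nqo1 in the interaction (0.04). By quantile normalization they were Keap1 in HFD vs NC in KO (0.01), Srxn1 in KO vs WT on HFD (0.1) and Mt2 in the interaction (-0.08).

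Of the 10 genes, KO vs WT on HFD called 4 at the same total, 1 with no filter on low values and 1 with the WT HFD libraries as 1 sample, against 2 (1 to 2 with a library left out). KO vs WT on NC called 0 under each setting. For HFD vs NC in WT the number was 5 at the same total and 0 with the WT HFD libraries as 1 sample, against 3 (0 to 3 with a library left out). HFD vs NC in KO called 0, or 0 to 1 with a library left out. The interaction called 0 with no filter and 0 with the WT HFD libraries as 1 sample, against 2 (0 to 3 with a library left out).

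With 1 library left out, signs changed within these ranges: in KO vs WT on HFD, Nqo1 -0.67 to 0.16 and Srxn1 -0.17 to 0.04; in KO vs WT on NC, Nfe2l2 0 to 0.17, Keap1 -0.03 to 0.16, Nqo1 -0.42 to 0.66, Txnrd1 -0.06 to 0.34, Srxn1 -0.64 to 0.34 and Mt1 -0.68 to 0.05; in HFD vs NC in WT, Nqo1 -0.91 to 0.12 and Mt1 -0.3 to 0.12; in HFD vs NC in KO, Keap1 -0.1 to 0.09, Hmox1 -0.14 to 0.21 and Mt2 -1.12 to 0.15; in the interaction, Nqo1 -0.92 to 0.16, Srxn1 -0.41 to 0.57 and Mt2 -0.58 to 0.69.

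Over all genes, KO vs WT on HFD called 6053, or 3445 with WT HFD as 1 sample (3629 to 6383 with a library left out). KO vs WT on NC called 886, or 438 with no filter and 461 with only the groups compared (381 to 1023). HFD vs NC in WT called 3377, or 1701 with no filter, 2186 by quantiles and 539 with WT HFD as 1 sample (628 to 3866). HFD vs NC in KO called 202, or 330 with a pseudocount of 8, 3 with no filter, 304 by quantiles, 28 with WT HFD as 1 sample and 0 with only the groups compared, where 2059 had an unadjusted p under 0.05 (14 to 961). The interaction called 3274, or 721 with no filter and 517 with WT HFD as 1 sample (530 to 4249). The cause of these shifts was not tested, apart from fewer samples or more genes tested by construction.

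Replicate numbers were shared between groups, but their deviations correlated by only -0.107 to 0.04, so they do not pair the samples. A replicate block left 2 of the 10 genes called in KO vs WT on HFD, 0 on NC, 2 for HFD vs NC in WT (without Keap1), 0 for HFD vs NC in KO, where it left 112 calls over all genes, and 2 for the interaction. Crossing the numbers of the KO libraries, chosen after seeing the data, called 1 of the 10 genes and 1049 genes for HFD vs NC in KO, against 0 and 0 with the same-numbered pairs of these groups alone. A count test (edgeR or DESeq2), planned for recovered whole reads, was not run because rounding prevents that recovery. Depth limits Nqo1 and Mt2 most.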
